A study of Mus musculus with 4 samples.

Results

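Antigen presentation and interferon response genes were followed in mouse pancreas with spatial transcriptomics, across 4 sections of formalin-fixed, paraffin-embedded tissue, each from its own mouse. The members were 45 genes chosen by name for their function, of which 44 were found among the 32285 features used and had at least 1 UMI (a unique molecular identifier, counted once per captured molecule) in every section. The remaining gene, Mx1, was not analysed here. They were sorted by role into 8 groups: MHC class I and its activator (5 genes), peptide transport and loading (3), immunoproteasome (5), MHC class II (7), interferon transcription factors (5), antiviral interferon-induced genes (10), interferon-induced GTPases (5), and chemokines and checkpoint genes (4). The study asked how loss of the histone methyltransferase Ehmt2 (G9a) in pancreatic epithelium alters the response to acute pancreatitis. All mice were C57Bl/6, 4 weeks old, carried Pdx1-Cre and had received caerulein, a cholecystokinin analogue that injures acinar cells, as 8 hourly doses of 50 μg/kg after a 12 h fast, with tissue taken 18 h after the first dose. In 2 sections both Ehmt2 alleles were intact (Ehmt2+/+ replicates 1 and 2), and in 2 both were floxed (Ehmt2 fl/fl replicates 1 and 2). No untreated section was analysed here. Pdx1-Cre acts in the pancreatic epithelial lineage, so macrophages and other immune cells, the main users of MHC class II, keep Ehmt2 in both groups.

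MHC class I molecules, made of a heavy chain and B2m, show peptides from the cytosol to CD8 T cells on nearly every nucleated cell. The immunoproteasome cuts these peptides, the Tap transporter carries them into the endoplasmic reticulum, and Tapbp holds empty class I beside the transporter until a peptide fits. MHC class II molecules show peptides taken up from outside to CD4 T cells, and are found mainly on macrophages, dendritic cells and B cells. Interferons raise both pathways together with antiviral effectors, GTPases that attack vacuoles of intracellular pathogens, and chemokines that draw T cells. In pancreatitis, injured acinar cells and recruited macrophages are both known to take part in such inflammatory signalling.

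The promoters of these genes carry short elements through which the response is wired, and 6 are shown because they stand for the groups described most below. The sequences are RefSeq promoters (build GRCm38.p6), printed 5′ to 3′ on the gene's strand and covering the 250 bases before the start that RefSeq gives. For H2-D1 and Irgm1 the GENCODE gene model starts further upstream, so that these windows lie inside it, and for Bst2 it starts further downstream. In H2-D1, H2-Aa and H2-Eb1 the capitals mark matches to the letters of the Y box (CTGATTGG, or CCAATCAG on the other strand). The Y box is an element that the class II transactivator Ciita and its class I relative Nlrc5 use through bound factors. Whether the match in H2-D1, on the other strand, is the element that Nlrc5 uses was not tested. In Isg15, Bst2 and Irgm1 they mark matches to the core of the interferon-stimulated response element (GAAANNGAA, or TTCNNTTTC on the other strand), where matches may overlap by GAA.
H2-D1: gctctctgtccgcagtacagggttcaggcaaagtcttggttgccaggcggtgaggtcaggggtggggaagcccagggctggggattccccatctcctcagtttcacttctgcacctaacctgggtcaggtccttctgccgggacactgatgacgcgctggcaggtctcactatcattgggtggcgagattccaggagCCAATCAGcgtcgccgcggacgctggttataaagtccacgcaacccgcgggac
H2-Aa: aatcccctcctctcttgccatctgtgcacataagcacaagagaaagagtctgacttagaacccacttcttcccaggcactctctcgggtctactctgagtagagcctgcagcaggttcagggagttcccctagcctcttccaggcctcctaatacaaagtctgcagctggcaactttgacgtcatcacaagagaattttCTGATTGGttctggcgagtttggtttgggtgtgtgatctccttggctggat
H2-Eb1: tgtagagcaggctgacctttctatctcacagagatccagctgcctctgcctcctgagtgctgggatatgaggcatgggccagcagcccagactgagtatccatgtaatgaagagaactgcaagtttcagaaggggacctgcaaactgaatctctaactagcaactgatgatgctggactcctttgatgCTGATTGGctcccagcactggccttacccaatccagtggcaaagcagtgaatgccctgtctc
Isg15: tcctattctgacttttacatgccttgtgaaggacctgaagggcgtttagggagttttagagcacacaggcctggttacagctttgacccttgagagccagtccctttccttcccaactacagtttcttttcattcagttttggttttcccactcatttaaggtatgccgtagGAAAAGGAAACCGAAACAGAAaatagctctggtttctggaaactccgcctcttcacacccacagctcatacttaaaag
Bst2: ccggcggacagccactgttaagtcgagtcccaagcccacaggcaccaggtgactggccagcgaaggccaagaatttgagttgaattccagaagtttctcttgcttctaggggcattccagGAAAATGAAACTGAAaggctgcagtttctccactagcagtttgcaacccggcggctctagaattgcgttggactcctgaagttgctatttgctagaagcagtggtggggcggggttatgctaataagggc
Irgm1: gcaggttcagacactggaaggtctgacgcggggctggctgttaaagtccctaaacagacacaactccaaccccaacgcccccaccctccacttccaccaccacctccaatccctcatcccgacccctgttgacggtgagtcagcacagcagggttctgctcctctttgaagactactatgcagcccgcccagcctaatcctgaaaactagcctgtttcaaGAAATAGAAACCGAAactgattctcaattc
These windows lie at chr17:35262844-35263093 (+) for H2-D1, chr17:34287824-34288073 (−) for H2-Aa, chr17:34305617-34305866 (+) for H2-Eb1, chr4:156200819-156201068 (−) for Isg15, chr8:71537473-71537722 (−) for Bst2 and chr11:48871421-48871670 (−) for Irgm1. Isg15 held 3 core matches in a row, and Bst2 and Irgm1 held 2 each.

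A promoter was found for 37 of the 44 members. The Y box letters were present in 9 of 37 (24.3%), compared with 4.43% of the promoters of 27025 gene symbols. The 9 were H2-D1, H2-T23, Tap1, Psmb9, H2-Aa, H2-Eb1, Irf8, Cxcl9 and Cxcl10, and none was an antiviral gene or a GTPase. The response element core was present in 16 of 37 (43.2%), compared with 8.18% of all promoters. It was found in all 5 GTPases, in the 3 chemokine and checkpoint genes with a promoter, in 5 of 9 antiviral genes and in 0 of 4 class II genes. A match is only a run of letters in a window and is not evidence of a bound site. Many members are also neighbours, since 13 of the 44 lie on chromosome 17 between 33915899 and 36032855 (GRCm38, GENCODE gene models), the mouse MHC region: Tapbp, H2-K1, H2-DMa, H2-DMb1, Psmb9, Tap1, Psmb8, Tap2, H2-Ab1, H2-Aa, H2-Eb1, H2-D1 and H2-T23. Probes of the H2 genes can be shared between near-identical paralogs, so counts of H2-K1, H2-D1 and H2-T23 are uncertain as to which gene they came from.

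The sections held 6144 and 7871 spots with at least 500 UMIs in Ehmt2+/+ and 6483 and 6462 in Ehmt2 fl/fl. A Visium spot is a small area of tissue that can hold several cells. Ehmt2+/+ replicate 1 stood apart with 43784930 UMIs in these spots, against 6643747 to 7938386 in the other 3 sections. Digestive enzyme genes took 65.5% and 54.6% of UMIs in Ehmt2+/+ and 22.9% and 22.2% in Ehmt2 fl/fl, so levels below are given as CPM (a gene's UMIs scaled to 1000000) over all other genes (non-enzyme CPM) unless another scale is named. Ehmt2 itself was counted at 19.8 and 3.95 CPM in Ehmt2+/+ and 10.1 and 12.1 CPM in Ehmt2 fl/fl, which does not separate the labels. The olfactory receptor genes used as background below had medians of 0.251 and 4.97 CPM in Ehmt2+/+ and 8.28 and 12.6 CPM in Ehmt2 fl/fl. Ehmt2 was thus well above background only in Ehmt2+/+ replicate 1. The Y-linked genes Ddx3y, Uty, Kdm5d and Eif2s3y had 0 to 1 UMI each in Ehmt2+/+ and 33 to 139 in Ehmt2 fl/fl, so genotype and sex cannot be told apart in any comparison of the groups.

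Most members were counted well above the background of the assay. As background, the 1107 detected genes for olfactory receptors (Olfr), sensory receptors of the nose, had a median of 0.729 and 10.9 non-enzyme CPM in Ehmt2+/+ replicates 1 and 2 and 10.7 and 16.2 in Ehmt2 fl/fl replicates 1 and 2. The background was therefore lowest in the section with the most UMIs. The number of members above the 99th percentile of the Olfr genes was 41 and 31 in Ehmt2+/+ and 35 and 30 in Ehmt2 fl/fl, and 28 of 44 were above it in all 4. These 28 included all 5 immunoproteasome genes, all 5 transcription factors, 4 of 5 class I genes, 4 of 7 class II genes, 2 of 3 loading genes, 7 of 10 antiviral genes, Cxcl10 and none of the 5 GTPases. Ifit2, which binds viral RNA, and Ido1, which degrades tryptophan, were above it in no section. For Ido1 the level was 1.18, 0.744, 0.891 and 0.95 times the Olfr median, so it could not be told from background. Counts are not scaled by length or probe number, so levels are compared between sections for 1 gene and not between genes.

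**Figure D1:**
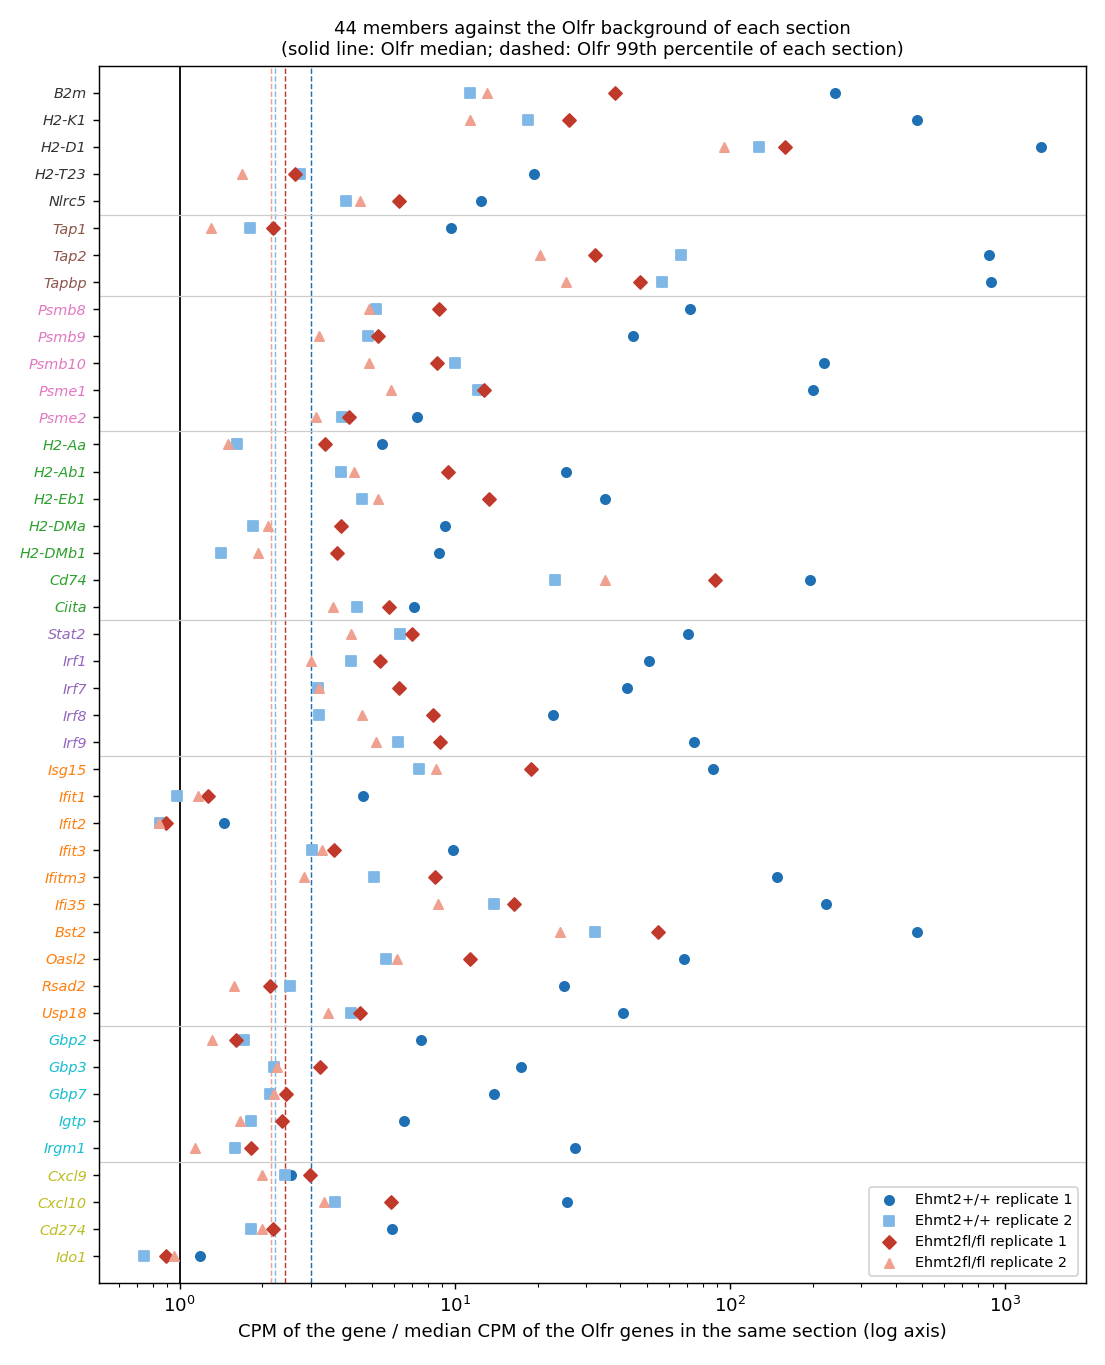
Level of each of the 44 members relative to the median of the Olfr genes in the same section (ratio, log axis), 1 point per section, grouped by role. The solid line is the Olfr median and the dashed lines the Olfr 99th percentile of each section. Ratios are highest in Ehmt2+/+ replicate 1, where the Olfr median was 0.251 CPM, except for Cxcl9, and Ido1 and Ifit2 lie close to the Olfr median.

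All 5 class I genes were counted in both genotypes. H2-D1, a classical class I heavy chain, had 981 and 1396 non-enzyme CPM in Ehmt2+/+ and 1709 and 1538 in Ehmt2 fl/fl. B2m, the shared light chain, had 175 and 124 in Ehmt2+/+ and 412 and 211 in Ehmt2 fl/fl. For both genes the 2 Ehmt2 fl/fl sections were above the 2 Ehmt2+/+ sections, an order that did not hold after TMM scaling, where the groups overlapped. H2-K1, the other classical heavy chain, had 349 and 201 in Ehmt2+/+ and 280 and 184 in Ehmt2 fl/fl, and the groups overlapped. H2-T23, the non-classical ligand of NK cell receptors, had 14.1, 30.0, 28.1 and 27.2 (values without a group are given for Ehmt2+/+ replicates 1 and 2, then Ehmt2 fl/fl replicates 1 and 2) and also overlapped. Nlrc5, the transactivator of class I genes, had 9.08 and 44.1 in Ehmt2+/+ and 67.2 and 73.5 in Ehmt2 fl/fl, with the low value in the section of low background.

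Of the peptide transport and loading genes, 2 of 3 lay lower in Ehmt2 fl/fl on this scale, an order that depended on the scaling. Tap2, one chain of the peptide transporter, had 635 and 726 non-enzyme CPM in Ehmt2+/+ and 347 and 330 in Ehmt2 fl/fl, a ratio of group means of 0.498. Tapbp, the tapasin that bridges class I to the transporter, had 647 and 618 in Ehmt2+/+ and 504 and 410 in Ehmt2 fl/fl. Both genes were below in both Ehmt2 fl/fl sections with non-enzyme CPM, background-subtracted CPM and TMM scaling, but in CPM of all genes Tapbp was above and Tap2 overlapped. Tap1, the partner chain of Tap2, did not follow it, with 7.09 and 19.6 in Ehmt2+/+ and 23.4 and 21.0 in Ehmt2 fl/fl, values of 9.73, 1.79, 2.18 and 1.30 times the Olfr median. The immunoproteasome was divided. Psmb10, a catalytic subunit, had 161 and 109 in Ehmt2+/+ and 92.3 and 79.0 in Ehmt2 fl/fl, while Psmb8, another catalytic subunit, had 52.0 and 56.7 in Ehmt2+/+ and 93.7 and 79.2 in Ehmt2 fl/fl. In CPM of all genes Psmb10 was above as well, and after TMM scaling Psmb8 overlapped. The third, Psmb9, overlapped at 32.5, 53.0, 56.6 and 51.8. Of the activator subunits that open the proteasome, Psme1 overlapped at 146, 133, 138 and 94.9, and Psme2 had 5.30 and 42.7 in Ehmt2+/+ and 44.1 and 50.8 in Ehmt2 fl/fl, overlapping after TMM scaling.

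All 7 class II genes were higher in both Ehmt2 fl/fl sections than in both Ehmt2+/+ sections (6 of 7 after TMM scaling). The same order held for 45.3% of 20349 genes, and for 20.3% after TMM scaling. None of the 7 passed the test between genotypes given below. Above the Olfr 99th percentile were 7 and 4 of them in Ehmt2+/+ and 7 and 4 in Ehmt2 fl/fl. Those not above it in replicate 2 of either group were H2-Aa, H2-DMa and H2-DMb1. Cd74, the invariant chain that fills the class II groove until a peptide replaces it, had 142 and 254 non-enzyme CPM in Ehmt2+/+ and 944 and 571 in Ehmt2 fl/fl, a ratio of group means of 3.82. H2-Eb1, a beta chain, had 25.6 and 50.2 in Ehmt2+/+ and 143 and 85.0 in Ehmt2 fl/fl. H2-Ab1, the other beta chain, had 18.5 and 42.1 in Ehmt2+/+ and 102 and 69.8 in Ehmt2 fl/fl. For these 3 genes the order of the sections was the same, with Ehmt2+/+ replicate 1 lowest and Ehmt2 fl/fl replicate 1 highest. H2-Aa, the alpha chain that pairs with H2-Ab1, had 3.97, 17.7, 36.1 and 24.3 in the 4 sections. H2-DMa and H2-DMb1, the chains of the peptide editor that removes the Cd74 fragment, had 6.69, 20.2, 41.6 and 33.8, and 6.36, 15.4, 40.0 and 31.2. Ciita, the transactivator of the class II genes, had 5.17 and 48.3 in Ehmt2+/+ and 61.9 and 58.4 in Ehmt2 fl/fl, and was the one class II gene whose groups overlapped after TMM scaling. On that scale Cd74 had 170 and 121 CPM in Ehmt2+/+ and 427 and 209 in Ehmt2 fl/fl, whereas H2-Eb1 had 30.6 and 23.8 against 64.5 and 31.1, so that its groups were close to touching. The H2-Aa and H2-Eb1 promoters are the 2 of 4 class II promoters that held the Y box letters. A higher level in a section can come from more cells of a type or from more RNA per cell, which cannot be told apart here.

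**Figure D2:**
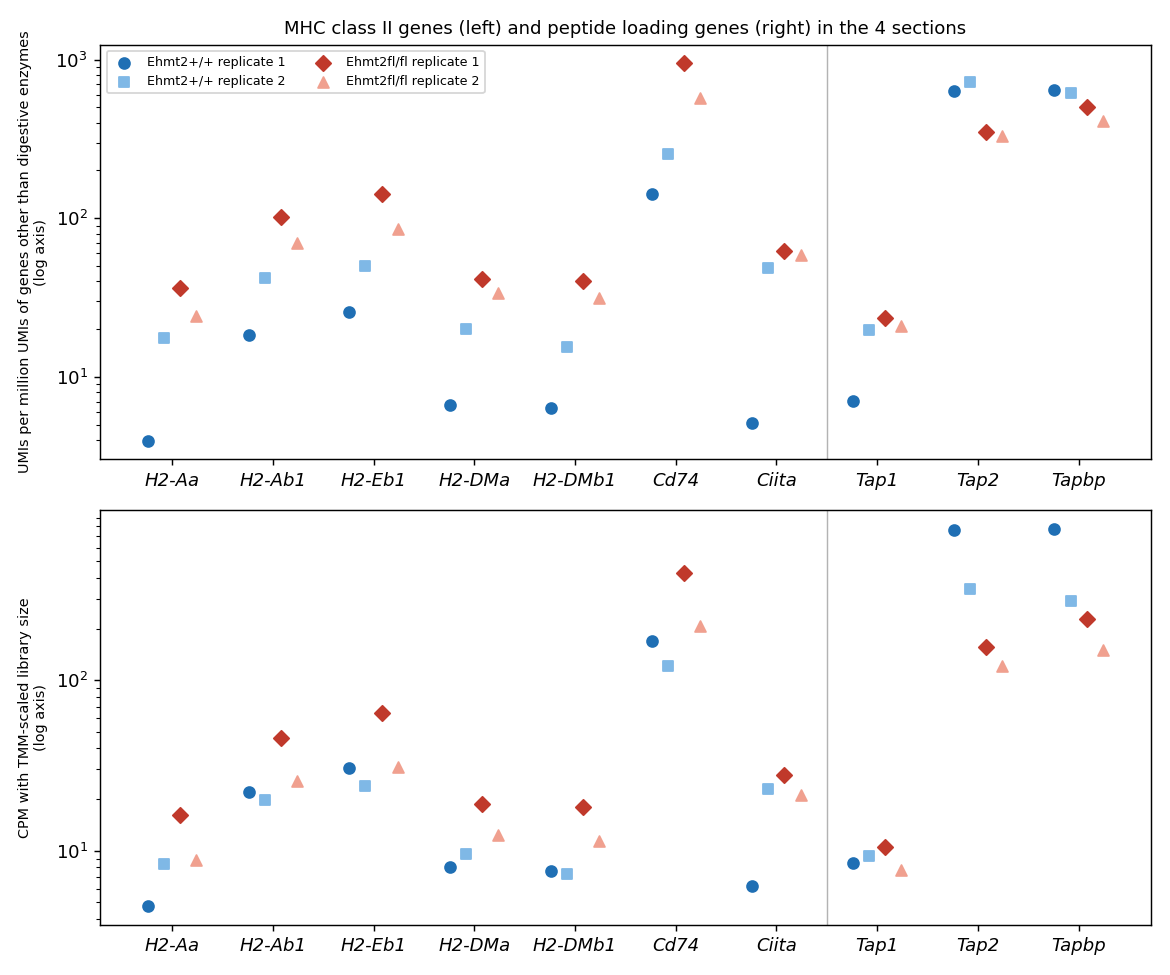
Levels (log axes) of the 7 class II genes (left) and the 3 peptide transport and loading genes (right), 1 point per section, in non-enzyme CPM (upper panel) and TMM-scaled CPM (lower panel). The Ehmt2 fl/fl points lie above the Ehmt2+/+ points for every class II gene in the upper panel and for 6 of 7 in the lower panel, and below them in both panels for Tap2 and Tapbp, which in CPM of all genes overlapped and lay above.

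These orders have to be read against all genes. On non-enzyme CPM, 31 of 44 members were above in both Ehmt2 fl/fl sections, where 45.3% of 20349 genes were, and 3 (Tap2, Tapbp and Psmb10) were below, where 6.74% of genes were. The ratio of group means had a median of 2.83 for the 7 class II genes and 1.89 for all 44 members, compared with 1.79 for all genes, 2.28 for the Olfr genes and 1.20 for the genes above the Olfr 99th percentile in all sections. 4 scales were compared (CPM of all genes, non-enzyme CPM, the latter minus the section's Olfr median, and TMM-scaled CPM). After the subtraction, chosen after the data were seen, 27 members were above and 4 below, where 27.3% and 19.9% of genes were. All 7 class II genes were above, with ratios from 2.24 for Ciita to 4.38 for H2-DMb1 and 3.87 for Cd74. In Ehmt2+/+ replicate 2 H2-DMb1 had 55 UMIs where the median Olfr gene had 39, so its ratio rests on a level near background. On all 4 scales 12 of 44 members were above (Nlrc5, H2-Aa, H2-Ab1, H2-Eb1, H2-DMa, H2-DMb1, Cd74, Irf8, Ifit1, Ifit3, Igtp and Cd274), where 16.0% of genes were, and 0 of 44 were below, where 0.703% of genes were. Of these 12, 6 are class II genes.

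Summed markers of the immune cells that carry class II were also higher in both Ehmt2 fl/fl sections, as were those of some other lists but not all. No such immune marker was called between genotypes (0 of 10 macrophage, 0 of 6 dendritic and 0 of 12 lymphoid markers). The 10 macrophage markers summed to 243 and 339 non-enzyme CPM in Ehmt2+/+ and 1299 and 1062 in Ehmt2 fl/fl. All 10 were above in both Ehmt2 fl/fl sections on this scale, where 45.3% of 20349 genes were. Among these markers the scavenger receptor Mrc1 had 17.8, 27.5, 114 and 166, and the complement gene C1qa had 50.5, 68.2, 268 and 178. Lyz2 was above the Olfr 99th percentile in 0 sections. After TMM scaling the groups overlapped for the markers Cd68 and C1qb. The 7 class II genes summed to 208 and 448 in Ehmt2+/+ and 1368 and 874 in Ehmt2 fl/fl. The 6 dendritic cell markers were close to background, with 1, 0, 0 and 0 of them above the Olfr 99th percentile and sums of 10.3, 78.0, 96.6 and 118. The 12 lymphoid markers had 2, 3, 6 and 3 above it and sums of 32.1, 250, 353 and 385. The 5 neutrophil markers summed to 9.14, 70.7, 146 and 146, the 5 fibroblast markers to 778, 673, 1340 and 1164, and the 4 fat markers to 121, 258, 438 and 548. The 4 endothelial markers summed to 57.8, 92.9, 136 and 127. The sum of the 5 duct markers went the other way, at 653, 728, 533 and 503, but their median did not, at 23.6, 30.6, 38.1 and 41.1. After TMM scaling the duct marker Krt19 was below in both Ehmt2 fl/fl sections (582, 269, 97.1 and 62.7 CPM). For Krt7, Cftr, Muc1 and Sox9 the groups overlapped on that scale. The groups overlapped for the 6 islet markers (2893, 1448, 8237 and 1025) and the 4 blood markers (167, 68.2, 104 and 207). The part of any of these cells in the class II levels was not tested.

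Of the interferon transcription factors, 4 of 5 were above in both Ehmt2 fl/fl sections on non-enzyme CPM and 1 of 5 after TMM scaling. Of all 20349 genes, 45.3% and 20.3% were. Irf8, which acts in macrophages and dendritic cells, had 16.6 and 35.1 non-enzyme CPM in Ehmt2+/+ and 89.2 and 74.3 in Ehmt2 fl/fl and was above on all 4 scales. Irf9, the DNA-binding part of the complex formed with Stat2, had 54.0 and 67.9 in Ehmt2+/+ and 95.1 and 83.9 in Ehmt2 fl/fl, but the groups overlapped after TMM scaling. Irf7, the amplifier of type I interferon, had 30.9, 34.8, 67.6 and 51.8. Irf1, induced by interferon gamma, had 36.9, 46.0, 57.2 and 48.4, and Stat2 overlapped at 51.2, 69.0, 74.8 and 67.7. For Irf1, Irf7 and Stat2 the groups also overlapped after TMM scaling.

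Of the antiviral genes, Bst2, which tethers virus particles to the cell surface, had 348 and 354 non-enzyme CPM in Ehmt2+/+ and 587 and 390 in Ehmt2 fl/fl. Isg15, a ubiquitin-like modifier, had 63.0 and 81.4 in Ehmt2+/+ and 204 and 139 in Ehmt2 fl/fl. Oasl2, of the oligoadenylate synthetase family, had 49.4 and 61.7 in Ehmt2+/+ and 121 and 100 in Ehmt2 fl/fl. All 3 were above in both Ehmt2 fl/fl sections on non-enzyme CPM and overlapped after TMM scaling. Usp18, which removes Isg15 from proteins, had 29.8, 46.0, 48.4 and 55.9. Ifit3 had 7.15, 33.1, 39.0 and 53.1 and its relative Ifit1 3.38, 10.7, 13.7 and 18.9, both RNA-binding effectors, which in the last 3 sections stood at 3.03 to 3.64 times and 0.974 to 1.27 times the Olfr median. Ifitm3, which blocks viral entry, overlapped at 108, 55.9, 90.8 and 45.7, as did Ifi35 at 163, 152, 176 and 140 and Rsad2, which makes a chain-terminating nucleotide, at 18.2, 27.5, 22.8 and 25.4.

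Of the 5 GTPases, 5 and 0 were above the Olfr 99th percentile in Ehmt2+/+ replicates 1 and 2 and 2 in each Ehmt2 fl/fl section, and of the 4 chemokine and checkpoint genes 2, 2, 2 and 1 were. Gbp3, a guanylate-binding protein, had 12.7 and 24.1 non-enzyme CPM in Ehmt2+/+ and 34.8 and 36.4 in Ehmt2 fl/fl, with overlap after TMM scaling. The related Gbp2 had 5.50, 18.8, 17.2 and 21.2 and Gbp7 10.1, 23.3, 26.2 and 35.8. Irgm1, a regulator of the immunity-related GTPases, had 19.9, 17.4, 19.5 and 18.5, and Igtp, of the same family, had 4.77, 19.9, 25.4 and 26.9. Irgm1 thus had similar levels in all 4 sections, while its ratio to the Olfr median ran from 27.4 in Ehmt2+/+ replicate 1 to 1.14 in Ehmt2 fl/fl replicate 2. Cxcl10, a chemokine for activated T cells, had 18.7 and 40.1 in Ehmt2+/+ and 63.1 and 54.1 in Ehmt2 fl/fl, again with overlap after TMM scaling. Its relative Cxcl9 had 1.85, 26.4, 32.0 and 32.4, and Cd274, which encodes the checkpoint ligand PD-L1, had 4.31, 19.9, 23.4 and 32.2. In Cxcl9 and Cd274 the lowest value was that of the section with the lowest background.

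No member passed the test between genotypes. With each section as 1 replicate and edgeR's quasi-likelihood test across 20053 genes, 0 of 44 members had an adjusted p under 0.05, and 0 had an unadjusted p under 0.05. Among all genes 0.0549% were called higher and 0.0549% lower. The largest estimates were those of Cd74, with a log2 fold change of 1.13 (SE 1.09, edgeR adjusted p = 0.863), Ido1 at 1.04 (SE 1.34) and H2-DMb1 at 0.98 (SE 0.70). The smallest were those of Tap2 at −1.99 (SE 1.17), Psmb10 at −1.79 (SE 0.98) and Tapbp at −1.50 (SE 1.16), all with the same adjusted p. DESeq2 called Tap2 (adjusted p = 0.0258) and Psmb10 (adjusted p = 0.0471) lower, but it called 464 genes lower in all and gave no adjusted p for 34 of 44 members and 18272 of 20053 genes. Library sizes without TMM factors gave calls for B2m, Cd74, Isg15 and Oasl2, all higher, among 388 genes called higher. Simulated 4-fold changes at the dispersion of these sections (0.351) were recovered for 0 of 200 genes, so a lack of a call says little about a gene.

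**Figure D3:**
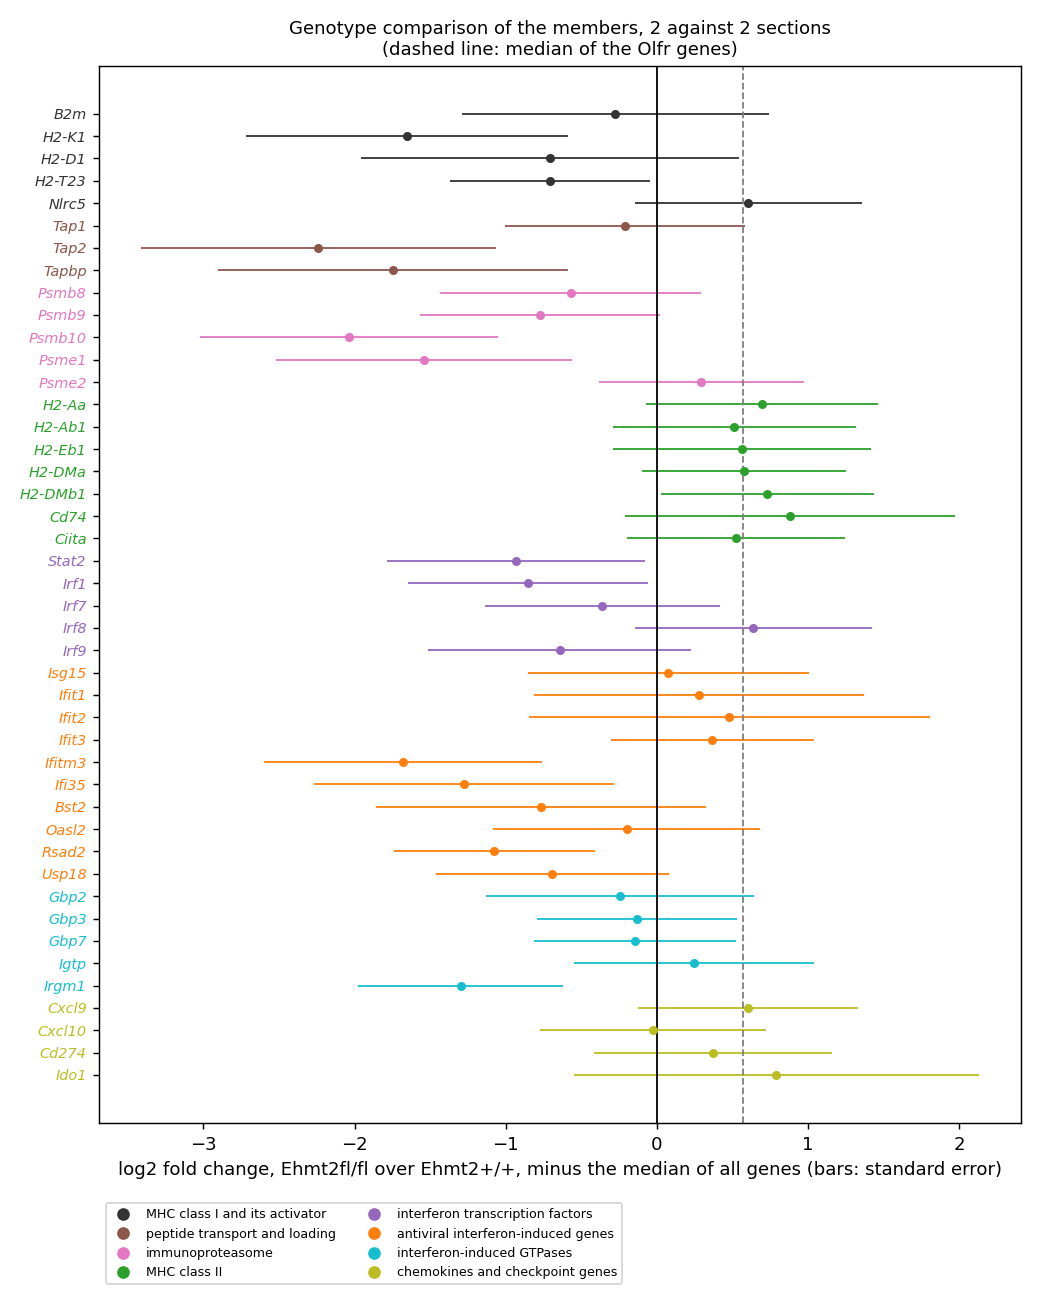
Log2 fold change of each member between Ehmt2 fl/fl and Ehmt2+/+ sections from edgeR, minus the median of all 20053 genes (0.25, drawn as 0), with bars of 1 standard error and colours by role. The 7 class II genes lie right of 0, around the dashed line for the median of the Olfr genes (0.57), and Tap2, Psmb10 and Tapbp lie lowest.

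By group, the median log2 fold change relative to that of all genes (0.25) was 0.58 for class II, with 7 of 7 genes positive, and 0.49 for the chemokine and checkpoint genes. It was −1.75 for loading, −0.77 for the immunoproteasome, −0.71 for class I, −0.64 for the transcription factors, −0.45 for the antiviral genes and −0.14 for the GTPases. All 44 members had a median of −0.20. The Olfr genes had a median of 0.57 and the 10 macrophage markers 0.79, so the class II value was as large as that of the background genes. The class II median ran from 0.26 without Ehmt2 fl/fl replicate 1 to 1.08 without Ehmt2 fl/fl replicate 2. It was 0.54 when spots rich in markers of lymphoid tissue, islets, macrophages or ducts were left out.

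The wider pathway gave no call either. Of the constitutive proteasome and chaperone genes that serve class I in every cell, 0 of 7 were called, with a median of −1.77 relative to all genes and all 7 negative. Their levels differed among themselves, since Psmb7, a constitutive catalytic subunit, had 213, 110, 108 and 86.0 non-enzyme CPM and Pdia3, a chaperone of the loading complex, had 1069, 1362, 2406 and 1962. Of the interferon receptors and kinases 0 of 9 were called (median −0.77), and of the sensors of viral nucleic acid 0 of 5 (median −0.32). Ifnar2, a chain of the type I interferon receptor, had 65.2, 50.8, 92.7 and 80.5 non-enzyme CPM. The interferon genes themselves were close to background, with 1, 0, 0 and 0 of the 4 listed above the Olfr 99th percentile, and 0 of the 3 tested were called (median 0.46). Ifng had 0.927, 11.5, 7.42 and 17.2. Ifnb1 was listed at 0 in all sections, where the median Olfr gene had 11 to 100 UMIs, so whether its RNA was measured cannot be told. Of the negative regulators 0 of 2 were called (median −0.20). Socs1, one of them, had 8.15, 32.8, 51.5 and 45.8.

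The share of spots with at least 1 UMI of a gene gave a view that does not depend on sums. Since this share rises with depth, each spot was thinned to 500 UMIs. Cd74 was then found in 2.95% of spots (95% Clopper-Pearson interval 2.54 to 3.40) and 5.65% (5.15 to 6.19) in Ehmt2+/+, and in 28.7% (27.6 to 29.8) and 19.1% (18.1 to 20.1) in Ehmt2 fl/fl. The difference of 19.6 percentage points had an exact two-sided permutation p = 0.333, the smallest that 2 sections against 2 allow. H2-D1 was found in 16.1%, 26.6%, 49.0% and 43.7% of spots, and H2-Eb1 in 0.635%, 1.28%, 5.31% and 3.42%. The median Olfr gene was found in 0.0163%, 0.280%, 0.416% and 0.665%. Tap2 was found in 11.1%, 15.2%, 11.8% and 12.7% of spots and overlapped between the groups. In all, 42 of 44 members were above in both Ehmt2 fl/fl sections and 0 below, and the share of the median Olfr gene was above as well. This count of shares was not made over all genes. In CPM of all genes, which like this thinning keeps the enzyme genes, 91.0% of 20349 genes were above.

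When spots were instead thinned to 500 non-enzyme UMIs, Cd74 was found in 7.17% and 11.5% of spots in Ehmt2+/+ and 34.6% and 22.8% in Ehmt2 fl/fl. Tap2 was found in 28.3% and 30.1% in Ehmt2+/+ and 15.7% and 14.4% in Ehmt2 fl/fl. Tapbp was found in 28.8% and 25.9% in Ehmt2+/+ and 22.1% and 18.4% in Ehmt2 fl/fl. Cd74 thus kept its order under both kinds of thinning, while Tapbp changed from above to below in Ehmt2 fl/fl. Of all members, 32 were above and 4 below. Shares were not counted over all genes here either, of which 45.3% were above and 6.74% below in non-enzyme CPM.

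Where in the tissue the members lay was examined by placing spots by markers. Islet-rich spots numbered 86 and 40 in Ehmt2+/+ and 165 and 31 in Ehmt2 fl/fl. Against the remaining spots of the same section, 0 of 44 members were called in islet-rich spots by edgeR with the section as a block, where 0.730% of 19856 genes were called higher and 0.151% lower. At an unadjusted p under 0.05 there were 0 higher and 14 lower members, beside 301 higher and 2369 lower of all 19856 genes. The members' median log2 fold change was −0.97, compared with −0.65 for all genes. Members were lower in islet-rich spots in 32, 35, 39 and 25 of 44 cases in the 4 sections, but 6, 24, 1 and 7 of them had no UMI there. Islet-rich spots held only 227345, 18476, 168001 and 28047 non-enzyme UMIs, and a gene without a UMI there counts as lower. This count was not made over all genes, so it is not a result about the members. Irgm1 had 0, 0, 1 and 0 UMIs in islet-rich spots against 301, 61, 95 and 113 in the remaining spots (log2 fold change −3.72, SE 1.15, edgeR adjusted p = 0.110). H2-Aa had −2.20 (adjusted p = 0.324) and Gbp3 −1.73 (adjusted p = 0.329), each on 0 to 2 UMIs per section. The largest estimates were Psme2 at 0.33, Igtp at 0.06 and H2-DMa at −0.07. Without Ehmt2 fl/fl replicate 1, which holds the most islet-rich spots, 13 members were called lower and 0 higher, among 1679 lower and 120 higher of 19684 genes.

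H2-D1 had 827, 1137, 1012 and 1212 non-enzyme CPM in islet-rich spots and 984, 1401, 1731 and 1538 in the remaining spots, lower in all 4 sections. Bst2 was also lower in all 4, with 246, 325, 357 and 214 in islet-rich spots and 349, 353, 589 and 389 in the remaining spots. The islet markers by which the spots were placed count in these totals, which lowers the CPM of other genes. Without TMM factors all genes had a median log2 fold change of −0.22. The log2 ratios were −0.25, −0.30, −0.77 and −0.34 for H2-D1 and −0.50, −0.12, −0.72 and −0.86 for Bst2. Cd74 was higher in islet-rich spots in Ehmt2+/+ replicate 1 (251 against 141) and lower in the other 3 sections (217 against 255, 595 against 940 and 285 against 571).

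Macrophage-rich spots numbered 169 and 81 in Ehmt2 fl/fl and 2 and 8 in Ehmt2+/+, so the contrast was made within Ehmt2 fl/fl. Of 44 members, Oasl2 was called higher by edgeR (log2 fold change 0.94, SE 0.26, adjusted p = 0.0469), where 0.177% of 19803 genes were called higher and 0.318% lower. Oasl2 had 220 and 280 non-enzyme CPM in macrophage-rich spots against 121 and 98.2 in the remaining spots, on 26 and 17 UMIs, and the call was lost with DESeq2 (adjusted p = 0.375) and without the filter on low counts (0.0616). It was also lost (0.999) with a lower marker threshold, a fit that took in 3 sections, 1 of them Ehmt2+/+, so both the threshold and the sections changed. Isg15 had 347 and 329 against 205 and 137 (log2 fold change 0.77, SE 0.22, edgeR adjusted p = 0.0851). Irf8 had 203 and 65.8 against 87.6 and 74.0 (0.75, SE 0.31, edgeR adjusted p = 0.616), so that its 2 sections went opposite ways. The antiviral genes summed to 1780 and 1677 against 1319 and 975, and 9 of 10 lay above the median of all genes. Class II genes did not follow, with sums of 1305 and 970 in macrophage-rich spots against 1365 and 870. The lowest estimates were those of Cd274 at −2.41, Psme2 at −1.23 and Ido1 at −1.22, with 0 to 2 UMIs per section.

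**Figure D4:**
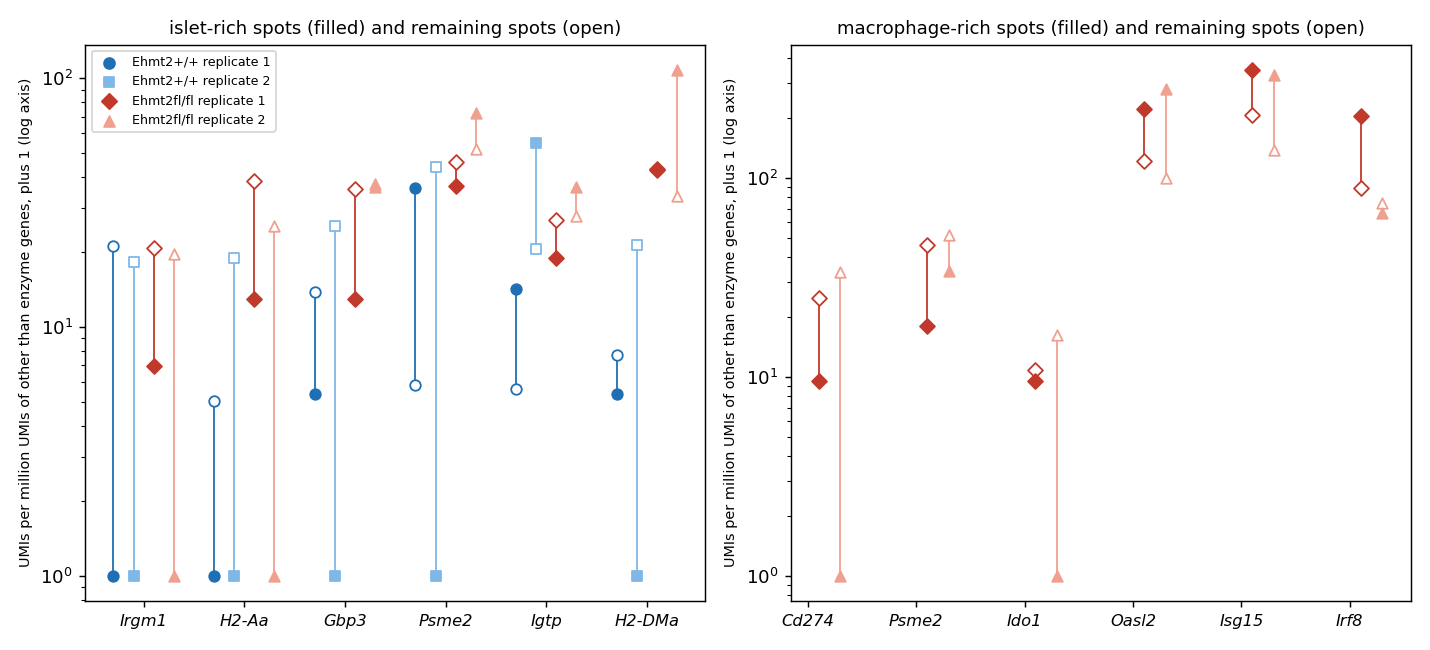
Non-enzyme CPM plus 1 (log axes) of the 3 members with the smallest and the 3 with the largest log2 fold change in islet-rich (left) and macrophage-rich (right) spots, filled for these spots and open for the remaining spots, 1 pair per section. Irgm1 is lower in islet-rich spots in all 4 sections, on 0, 0, 1 and 0 UMIs there. Igtp moves both ways, and Oasl2 and Isg15 are higher in macrophage-rich spots in both Ehmt2 fl/fl sections.

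Since few spots were macrophage-rich, all spots thinned to 500 UMIs were also split by the presence of any macrophage marker UMI, a comparison chosen after the data were seen. Such macrophage-positive spots made up 5.86% and 8.09% of spots in Ehmt2+/+ and 38.7% and 33.6% in Ehmt2 fl/fl. The 500 UMIs include the enzyme genes, however. Spots without a macrophage marker UMI kept a median of 176 and 220 non-enzyme UMIs in Ehmt2+/+ and 383 and 396 in Ehmt2 fl/fl. Fibroblast-positive spots made up 14.9%, 15.1%, 39.0% and 36.3%, and duct-positive spots were also more frequent in both Ehmt2 fl/fl sections. Whether the macrophage-positive share differs at equal non-enzyme UMIs was not tested. Of 44 members 0 were called by edgeR between macrophage-positive and macrophage-negative spots (1 at an unadjusted p under 0.05, Igtp), where 0.0516% of genes were called. The members' median was 0.01 relative to all genes. Class II genes summed to 205, 610, 1359 and 882 non-enzyme CPM in macrophage-positive spots and 254, 463, 1338 and 845 in the negative spots. Cd74 had 178 and 251 in the negative spots of Ehmt2+/+ and 910 and 548 in those of Ehmt2 fl/fl. In the negative spots Cd74 was above in both Ehmt2 fl/fl sections, an order that 45.3% of genes had over whole sections in non-enzyme CPM. It was not counted over all genes in these spots. At 500 UMIs a spot without a macrophage marker UMI may still hold macrophages, so their part in the Cd74 level was not tested. The same split by fibroblast markers called 0 of 44 members, where 0.0416% of genes were called, and by duct markers 0 of the 42 tested, where 0.0394% were called. The difference of the macrophage contrast between genotypes was called by edgeR for 0 members, as for 0 of all 19364 genes.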

How the data were processed

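The 4 caerulein-treated pancreas sections, 1 per mouse, were 2 Ehmt2+/+ and 2 Ehmt2 fl/fl, with groups taken from the labels. The deposited values are raw UMI counts per gene and spot, which the authors made from CytAssist Visium libraries with Space Ranger on mm10 and the mouse probe set, without normalization. Alignment files carry no barcodes and were not used. The 304 features marked as deprecated were left out. Members, lists and the rules for named genes (highest mean CPM per role group, 3 largest and 3 smallest changes per contrast) were chosen with earlier results of these data known.

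Counts were summed over spots with at least 500 UMIs (6643747 to 43784930 UMIs per section) and tested with edgeR 4.0.16 in R 4.3.3 (quasi-likelihood test, TMM, filterByExpr at a minimum of 10 counts, p-values adjusted over all genes by Benjamini-Hochberg, threshold 0.05). TMM factors were 0.288, 0.957, 1.71 and 2.13. A spot was islet-rich with at least 3 UMIs and 500 per 10000 non-enzyme UMIs of the islet list, and lymphoid-, macrophage- or duct-rich with at least 3 UMIs and 50 per 10000. Classes with fewer than 20 spots in a section were left out, which removed the lymphoid and duct contrasts. The 37 digestive enzyme genes found were left out of these contrasts, which had the section as a block. Spots are not replicates. Shares were compared with exact permutation tests, and their 95% intervals cover counting error only. DESeq2 1.42.0, other scalings, filters and spot sets, and each section left out in turn were the alternatives. The pipeline was tested on simulated data: 198 of 200 4-fold changes between genotypes were recovered at a dispersion of 0.05 and 0 of 200 at 0.351. Python 3.11.15 was used for all else.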

Additional observations from a re-analysis of the deposited data

How the results depend on the processing

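No paired analysis was possible because the replicate numbers were given in order and do not pair sections. With 2 sections per genotype and a dispersion of 0.351, a lack of calls between genotypes says little. The number of members called between genotypes was 0, and it was 2 with DESeq2, 4 without TMM factors and 0 to 30 when each section was left out in turn. The 30 came without Ehmt2+/+ replicate 2, where most genes were called as well. Each of these fits leaves 1 section in a genotype, so a call in it is not a result about a member. For islet-rich spots the number was 0, and it was 1 (lower) without TMM factors, where 238 of 19856 genes were called higher and 124 lower. It was 0 to 13 with a section left out. The 13 (all lower) came without Ehmt2 fl/fl replicate 1, where 1679 of 19684 genes were called lower and 120 higher. For macrophage-rich spots the number was 1, and it was 0 with a threshold of 20 per 10000 (a fit of 3 sections in place of 2, so threshold and sections changed together), 0 without the filter and 0 with DESeq2. It was 2 (both higher) without TMM factors, where 48 of 19803 genes were called higher and 31 lower. A threshold of 100 per 10000 left too few spots to be fitted, and no section could be left out of 2. The number of members above in both Ehmt2 fl/fl sections was 31 in non-enzyme CPM and 13 after TMM scaling, where 4130 and 3466 of 20349 genes were above and below. The number below was 3, and it was 0 in CPM of all genes and 6 after TMM scaling. Among the members picked by the rules for named genes, the difference in share of spots (Ehmt2 fl/fl minus Ehmt2+/+, in percentage points) changed sign without thinning for Tapbp (−14.8), Psme1 (−7.60), Psmb10 (−10.6), Irf9 (−0.255), Bst2 (−0.701) and Irgm1 (−1.15). Outside these rules it did so for H2-K1 (−12.6), Psmb9 (−0.419), Stat2 (−1.30), Irf1 (−0.794), Ifitm3 (−6.26), Ifi35 (−6.35) and Rsad2 (−0.606). With thinning to 500 non-enzyme UMIs the difference changed sign for Tapbp (−7.10), Psme1 (−1.55) and Psmb10 (−2.18). Outside the rules it did so for H2-K1 (−2.09), Ifi35 (−0.431) and Ifitm3 (−0.308). Under thinning to 500 UMIs of all genes, the Tap2 difference ran from −2.96 without Ehmt2+/+ replicate 1 to 1.10 without Ehmt2+/+ replicate 2. Under thinning to 500 non-enzyme UMIs it was −14.1 with all sections. The cause was not tested. Members near the Olfr median, with 0 to 2 UMIs in a spot class, are limited by depth.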
